A study of Mus musculus with 2 samples.

Results

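Newborn excitatory neurons that still held Eomes transcripts were examined by single-cell RNA sequencing in the mouse dorsal telencephalon at E14.5. The cells were chosen by the transcript counts measured in each of them. A cell was taken as such a neuron if it held at least 3 unique molecular identifiers (UMIs, each marking 1 captured transcript) of Neurod2 and Neurod6 together and at least 1 UMI of Eomes. It could hold at most 2 UMIs each of Mki67 and Top2a, of Dlx1 and Dlx2, and of Gad1 and Gad2, and none of Trp73, so that dividing cells, GABAergic neurons and Cajal-Retzius cells were left out. Of 3182 retained cells, 553 met this rule. These were 205 of 1211 cells in replicate 2 (16.9%, exact 95% interval 14.9 to 19.2) and 348 of 1971 in replicate 4 (17.7%, 16.0 to 19.4), with a mean of 17.3% ± 0.515 (SD, n = 2). They made up 66.0% of the 838 cells with any Eomes UMI.

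The data comprise 2 libraries of 1 group, wild-type (WT) control embryos of the EomesDot line, an Eomes-Cre mouse line by the title of the series. The labels do not say whether an embryo stands behind each library or whether a Cre allele was present in these controls, and the study's methods name C57BL/6J mice. The tissue is labelled as brain hemispheres and was dissected as dorsal telencephalon, in which the study looked for contacts between Sst-positive interneurons and cortical progenitors. With 1 group there were no conditions to compare, so the newborn neurons were set against the stages before and after them in the same libraries.

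In the developing cortex, radial glia divide at the ventricle and give rise to intermediate progenitor cells (IPCs), which are marked by the T-box transcription factor Eomes (Tbr2) and divide in the subventricular zone. Their daughters pass through a multipolar phase in the intermediate zone, then become bipolar and climb along radial glial fibres into the cortical plate. Neurod1, Neurod2 and Neurod6 are basic helix-loop-helix (bHLH) factors that come on in sequence in these cells as Eomes and the proneural factor Neurog2 are lost, and Unc5d, a netrin and Flrt receptor, is known from multipolar cells.

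The values that chose the cells spread widely. Eomes ranged from 1 to 77 UMIs per cell with a median of 11, and Neurod2 and Neurod6 together ranged from 3 to 114 with a median of 20. The median of Eomes was 11 in each library, and that of Neurod2 and Neurod6 was 23 in replicate 2 and 18 in replicate 4. At the edge of the rule, 64 cells held exactly 1 Eomes UMI and 14 held exactly 3 UMIs of Neurod2 and Neurod6. Just outside it stood 24 cells with 2 Neurod2 and Neurod6 UMIs, 6 with 3 UMIs of Mki67 and Top2a, and 1079 with no Eomes UMI but a median of 38 UMIs of Neurod2 and Neurod6. Most of the newborn neurons, 456, held 3 or more Eomes UMIs.

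Free RNA can place single UMIs in cells that do not express a gene. Cells that should lack both genes served as a measure of this. Of the GABAergic neurons, 0 of 66 cells in replicate 2 (which allows up to 4.545%) and 5 of 121 in replicate 4 (4.132%) held an Eomes UMI, and 3 of 66 and 2 of 121 held 3 or more UMIs of Neurod2 and Neurod6. The GABAergic cells were shallower, with medians of 21973 and 13395 UMIs against 30029 and 23318 in the newborn neurons. Of the newborn neurons, 34 of 205 in replicate 2 and 63 of 348 in replicate 4 held only 1 or 2 Eomes UMIs. How many of these cells held Eomes from free RNA alone was not tested. In the plot of both readouts per cell the newborn neurons lie at or above the limits on both axes, because the rule placed them there. They form a band that runs on to the Eomes-negative neurons.

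**Figure D1:**
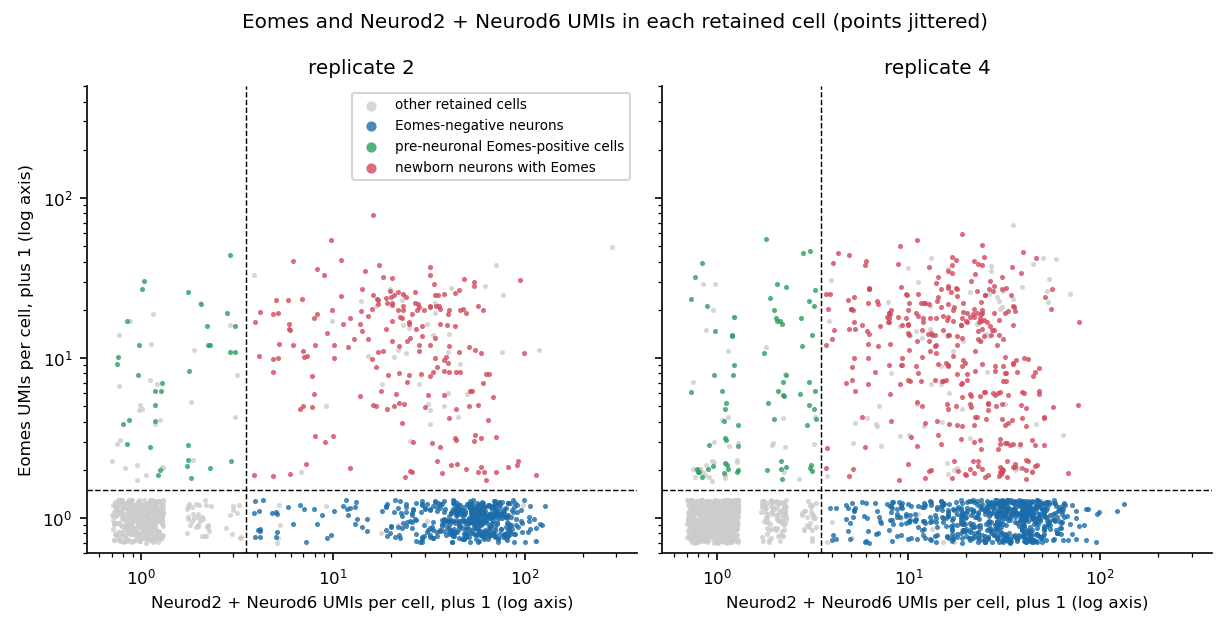
Eomes UMIs per cell (y axis, plus 1, log scale) against Neurod2 and Neurod6 UMIs (x axis, plus 1, log scale) in the retained cells of each library, each point 1 cell with a small random shift and dashed lines at the limits of the rule. The 553 newborn neurons (red) lie in the upper right fields, with 1 to 77 Eomes UMIs, the 108 pre-neuronal cells (green) to their left and the 1079 Eomes-negative neurons (blue) below them. Grey points in the same field are cells left out by the limits on Mki67, Top2a, Dlx, Gad or Trp73.

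Replicate 2 held 1712 barcodes with 40267872 UMIs and replicate 4 held 2589 barcodes with 49422007 UMIs. The newborn neurons had a median of 5862 and 5268.5 detected genes, and 2.69% and 2.92% of their UMIs were mitochondrial. Scrublet, a doublet caller, marked 2 of them in each library, which were kept. The libraries shared 3 barcodes, of which 1 was retained.

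For comparisons, UMIs were summed per library and class and given as counts per 1000000 UMIs of the sum (CPM). The stage before was represented by 108 Eomes-positive cells with at most 2 UMIs of Neurod2 and Neurod6 (35 and 73 cells), called pre-neuronal cells here. The stage after was represented by 1079 Eomes-negative neurons (453 and 626), which met every other part of the rule. The rule sets no limit on when a neuron was born, so stage and time of birth cannot be told apart between these classes. The words before and after stand for the classes in this sense. Radial glia-like cells (34 and 56) and GABAergic neurons (66 and 121) completed a fit of 10 sums with edgeR's quasi-likelihood test, and a gene was called at a Benjamini-Hochberg adjusted p under 0.05 over 11808 genes tested. Genes used in the rules of the classes were not tested. All 3 comparisons below use the same sums of newborn neurons, so they are not independent of each other, and the cells that define a class are also those in which the other genes were read.

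Of the 5 markers of these cells, Neurod1 and Unc5d were not part of the rule. Neurod1 stood at 238 CPM in replicate 2 and 278 in replicate 4, against 28.4 and 23.4 in pre-neuronal cells, 103 and 74.7 in Eomes-negative neurons and at most 0.729 in radial glia-like cells. Both libraries of the newborn neurons lay above every other sum. The difference was 3.42 ± 0.26 (log2, SE) to pre-neuronal cells (adjusted p = 3.75e-04) and 1.43 ± 0.20 to Eomes-negative neurons (adjusted p = 0.00129).

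Unc5d followed the same order but varied more between the libraries. It reached 2324 and 3733 CPM in the newborn neurons, 274 and 203 in pre-neuronal cells and 1081 and 1253 in Eomes-negative neurons. The difference to pre-neuronal cells was 3.76 ± 0.46 (log2, adjusted p = 0.00189). That to Eomes-negative neurons was 1.27 ± 0.41 at an adjusted p of 0.0486, and this call was lost in 7 of 14 alternatives, among them those without the newborn neurons of replicate 2 (adjusted p = 0.0708) and of replicate 4 (0.281). Both markers that the rule did not use thus lay above either neighbour in each library. As named markers of cells chosen with earlier results of these data known, they are no independent check of the rule.

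Among the levels of the genes in the rule, which are given as a description, Eomes was 423 and 538 CPM in the newborn neurons and 338 and 488 in pre-neuronal cells. Neurod2 was 263 and 286 CPM against 520 and 492 in Eomes-negative neurons, and Neurod6 was 629 and 554 against 920 and 672. The Eomes levels of newborn neurons and pre-neuronal cells overlapped, and the rule had set no limit between them.

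Genes that were highest in the newborn neurons were sought against the mean of both neighbouring stages. In this comparison 962 genes were called (8.15% of those tested), 547 higher (4.63%) and 415 lower (3.51%). The genes described next passed this test, lay above or below both neighbours in both libraries and are those with the widest gap to the nearer neighbour. The widest gaps belonged to Ust, Slc17a6, Sstr2, Kif26b, Nrn1, Dipk2a, Thrb, Neurod1, Plcb1 and Kcnh5. Highest and lowest refer to the compared classes, which leave out Eomes-positive cells over the limit on Mki67 and Top2a. The 96 such cells that met the rest of the rule held 1712 CPM of Unc5d and 120 of Neurod1. The other genes of this list were not read in them.

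Slc17a6, which encodes the vesicular glutamate transporter VGLUT2, stood at 275 and 394 CPM in the newborn neurons. It was 54.7 and 45.4 in pre-neuronal cells and 79.6 and 76.9 in Eomes-negative neurons, so both libraries were several-fold above each neighbour (2.84 ± 0.25 and 1.99 ± 0.22, log2, adjusted p = 5.50e-04 and 3.99e-04). Sstr2, a somatostatin receptor, was 154 and 171 CPM against 31.4 and 40.7 before and 37.6 and 46.8 after. The differences were 2.24 ± 0.28 (adjusted p = 0.00214) and 1.84 ± 0.24 (adjusted p = 8.71e-04). Ust, a sulfotransferase that modifies chondroitin and dermatan sulfate, was 509 and 477 CPM against 94.2 and 163 before and 70.6 and 83.4 after (2.01 ± 0.24 and 2.57 ± 0.24, adjusted p = 0.00176 and 2.01e-04). The lack of overlap with either neighbour is part of the rule that named these 3 genes.

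The nuclear receptor gene Thrb (thyroid hormone receptor beta) was 110 and 82.5 CPM, against 44.6 and 32.0 before and 10.3 in each library after, but its difference to pre-neuronal cells was only 0.18 (log2, adjusted p = 0.657) with the rules applied to cells thinned to 10000 UMIs. Nrn1, a secreted neurite growth factor, was 231 and 296 CPM against 90.2 and 78.1 before and 83.1 and 86.4 after. Kif26b, an atypical kinesin, was 322 and 697 CPM, 95.2 and 220 before and 12.1 and 6.52 after. Its difference was called against Eomes-negative neurons (5.67 ± 0.72, log2, adjusted p = 7.17e-04) and not against pre-neuronal cells (1.76 ± 0.61, adjusted p = 0.0921, and 0.0143 with no filter on low counts). The replicate 2 sum of newborn neurons was above both pre-neuronal sums of Kif26b, but by less than the gap between the libraries. Plcb1, a phospholipase C, was 3216 and 3955 CPM, and the potassium channel gene Kcnh5 was 114 and 180, each above both neighbours in both libraries.

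Other genes had their lowest level here. Ntrk2, the BDNF receptor TrkB, was 27.6 and 39.8 CPM against 143 and 125 before and 112 and 117 after (-1.90 ± 0.20 and -1.86 ± 0.19, log2, adjusted p = 9.93e-04 and 3.11e-04). Ptprz1, a receptor phosphatase of radial glia, was 68.3 and 65.3 CPM, 209 and 394 before and 598 and 510 after. Csmd2 was 39.9 and 39.7, Mgat4c 11.9 and 12.4, and Asic2, an acid-sensing ion channel gene, 11.2 and 5.74 CPM. For all 3 the newborn neurons lay below the 4 sums of the neighbours, and for Asic2 the nearest, replicate 4 of the pre-neuronal cells, was close at 12.7. Without the newborn neurons of replicate 2, with the sums of the other classes kept, 191 genes were called against the mean of both neighbours, and without those of replicate 4, 113. The single sum left was taken to vary like the other classes. Of the genes named for this comparison, Asic2, Kcnh5, Mgat4c, Plcb1 and Ptprz1 did not pass without replicate 2 (adjusted p from 0.0555 to 0.156), and Asic2, Kcnh5, Kif26b, Mgat4c, Plcb1, Ptprz1 and Unc5d did not pass without replicate 4 (adjusted p from 0.0565 to 0.303). Asic2 did not pass in a fit of the 3 classes alone either (adjusted p = 0.078).

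**Figure D2:**
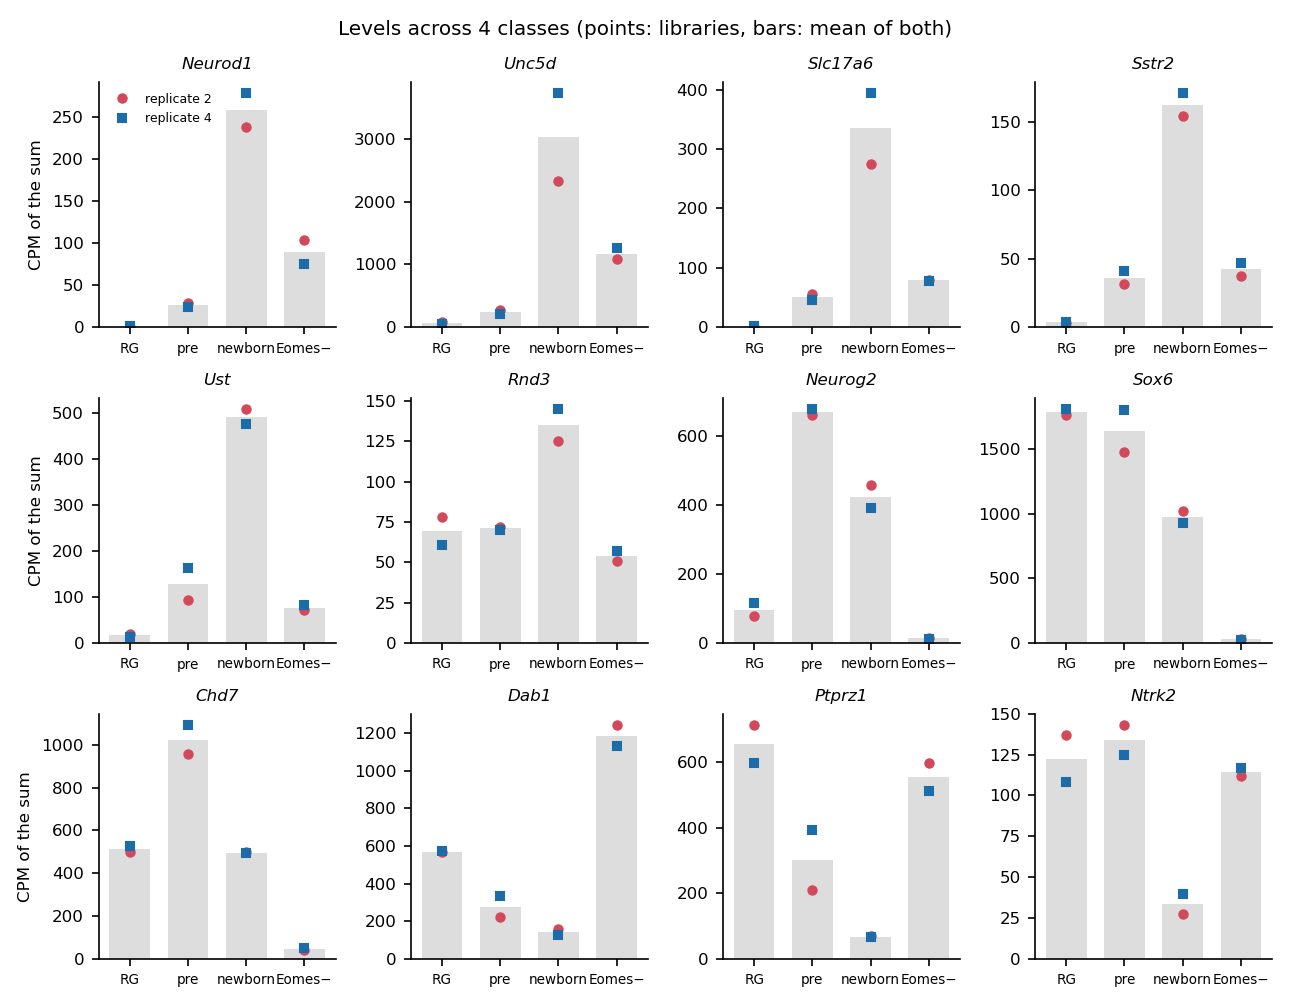
Level (CPM of the summed UMIs, linear axes from 0) of 12 genes in radial glia-like cells (RG), pre-neuronal cells (pre), newborn neurons and Eomes-negative neurons, with a point for each library and a bar at their mean. Neurod1, Unc5d, Slc17a6, Sstr2, Ust and Rnd3 are highest in the newborn neurons, Ptprz1 and Ntrk2 are lowest there, and Neurog2, Sox6 and Chd7 lie between pre-neuronal cells and Eomes-negative neurons.

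The promoters of these 10 highest genes were searched for the letters CAGATG, an E-box that bHLH proneural factors can bind, and AGGTGTGA, a T-box motif, each on both strands (reverse CATCTG and TCACACCT). A promoter here is the 300 bases from 250 before to 50 after a RefSeq start (GRCm38.p6). RefSeq gave 11 promoters for 9 of the 10 genes and none for Nrn1. The E-box stood in 2 of the 11, against 17.2% of all 32851 promoters, and the T-box in 0, against 1.28%. The promoters with the E-box were those of Slc17a6 and Kcnh5. The 250 bases before each start, at chr7:51624387-51624636 (plus strand) for Slc17a6 and chr12:75177333-75177582 (minus strand) for Kcnh5, are shown 5′ to 3′ with the E-box in capitals, since they are the promoters of this set that hold it. It begins at position -205 from the start in Slc17a6, whose other RefSeq promoter lacks it, and at -155 in Kcnh5, where it reads as the reverse letters.
Slc17a6: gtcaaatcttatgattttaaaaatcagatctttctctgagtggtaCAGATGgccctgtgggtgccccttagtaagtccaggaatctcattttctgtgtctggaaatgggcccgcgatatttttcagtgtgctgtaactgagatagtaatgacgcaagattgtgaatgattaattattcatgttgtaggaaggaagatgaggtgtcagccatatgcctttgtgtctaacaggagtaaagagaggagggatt
Kcnh5: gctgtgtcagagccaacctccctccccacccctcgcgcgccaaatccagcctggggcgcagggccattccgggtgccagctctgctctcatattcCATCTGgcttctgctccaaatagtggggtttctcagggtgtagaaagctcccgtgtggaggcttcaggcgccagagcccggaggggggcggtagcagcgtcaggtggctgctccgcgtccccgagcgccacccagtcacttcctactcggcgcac
A match in these letters is a description of the sequence and says nothing of binding in these cells.

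Against the pre-neuronal cells, 1605 of 11808 genes were called (13.6%), 782 higher in the newborn neurons (6.62%) and 823 lower (6.97%). Among genes of at least 50 CPM in either class, the 8 named for the widest rises were Rbfox1, Lrrtm4, Adamtsl3, Plxna4, Unc5d, Ryr3, Ndst3 and Clmp. Rbfox1, a neuronal splicing factor, was 759 and 907 CPM against 40.5 and 16.0 (5.02 ± 0.59, log2, adjusted p = 0.00154). Lrrtm4, a synaptic adhesion gene, was 80.5 and 89.1 against 1.01 and 4.0, and the semaphorin co-receptor gene Plxna4 was 969 and 1398 against 48.6 and 104 (4.02 ± 0.50, adjusted p = 0.00198). Adamtsl3, the calcium channel gene Ryr3, the heparan sulfate enzyme gene Ndst3 and the adhesion gene Clmp were also called higher, by 3.69 to 4.90 on the log2 scale.

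The 8 genes named in the same way for the widest falls against pre-neuronal cells were, in order, Ntng1, Mt3, Egfem1, Gulp1, Mt2, Plce1, Mt1 and Tgfbr3. Mt1, Mt2 and Mt3 are metallothioneins, which bind metals and are abundant in glia. Mt3 was 11.2 and 9.09 CPM against 170 and 198 (-4.11 ± 0.34, log2, adjusted p = 4.62e-04), Mt2 was 6.05 and 7.17 against 101 and 95.4, and Mt1 was 16.4 and 12.7 against 218 and 185. Gulp1, an engulfment adaptor gene, was 4.50 and 5.50 against 72.9 and 77.4, and Tgfbr3, a TGF-beta co-receptor gene, was 2.02 and 6.82 against 50.7 and 62.0. Plce1 was 4.81 and 7.53 against 70.9 and 107. Netrin-G1 (Ntng1) and Egfem1 were also called lower, but rested on replicate 2 of the pre-neuronal cells (236 and 423 CPM) more than on replicate 4 (24.0 and 64.7).

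The pre-neuronal class was not uniform. Of its 108 cells, 34 (31.5%) held only 1 or 2 Eomes UMIs. Its replicate 2 sum carried more of some neuronal genes than replicate 4, among them Cntnap2 at 755 against 15.3 and Stmn2 at 221 against 11.3. With at least 3 Eomes UMIs in both classes, 1056 genes were called, of which 972 were among the 1605. What these cells contribute to each call was not tested beyond this. Without the newborn neurons of replicate 2, 705 genes were called, and of the genes named for this comparison here and in the lists that follow, Bcl11b, Ccnd2, Chd7, Dll1, Egfem1, Elavl2, Grin2b, Hes6, Mfap4, Mgat4c, Ntng1, Plce1, Ptprz1 and Thrb did not pass (adjusted p from 0.0576 to 0.171). Without those of replicate 4, 450 were called, and Bcl11b, Ccnd2, Chd7, Dll1, Egfem1, Elavl2, Grin2b, Hes6, Kcnh5, Mfap4, Mgat4c, Ntng1, Plcb1, Plce1, Ptprz1, Rbfox3, Tbr1, Thrb and Tuba1a did not pass (adjusted p from 0.0512 to 0.226). With each cell's UMIs split at random into 2 equal sets, the rules applied to 1 set and the test to the other, Elavl2, Grin2b, Mfap4 and Rbfox3 did not pass, and with the rules applied to cells thinned to 10000 UMIs, Egfem1, Ccnd2, Elavl2, Grin2b, Mgat4c, Plcb1, Rbfox3 and Thrb did not. Ccnd2, Elavl2 and Mfap4 did not pass with at least 3 Eomes UMIs, Ccnd2 and Mfap4 with at most 5% mitochondrial UMIs, and Bcl11b, Ccnd2, Egfem1, Grin2b and Ntng1 in a fit of both classes alone.

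Against the Eomes-negative neurons, 3319 genes were called (28.1%), 1515 higher in the newborn neurons (12.8%) and 1804 lower (15.3%). Kif26b, described above, had the widest rise of those named by the rule. Neurog2, the proneural factor upstream of Eomes, was 456 and 391 CPM against 15.1 and 10.6 (4.94 ± 0.28, log2, adjusted p = 3.23e-05). Sox6, an SoxD transcription factor of cortical progenitors, was 1025 and 932 against 34.1 and 23.4 (4.98 ± 0.23, adjusted p = 1.89e-05). Lpar1, a lysophosphatidic acid receptor, was 91.8 and 48.7 against 1.19 and 3.56, and Cdk6, a kinase of the G1 phase, was 90.6 and 101 against 3.71 and 3.73. Myo10, a filopodial myosin, Btbd17 and Thsd4 were called higher by 4.02 to 4.29 on the log2 scale. These genes were named for their wide differences, so their separation between the classes adds nothing to that choice.

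On the lower side Tafa1 had the widest fall of those named by the rule. Grik3, a kainate receptor subunit, was 4.81 and 9.92 CPM against 117 and 137 (-4.19 ± 0.32, log2, adjusted p = 1.49e-04). Grm5, a metabotropic glutamate receptor, was 10.4 and 8.85 against 125 and 109, and Runx1t1, a transcriptional co-repressor, was 135 and 66.7 against 1154 and 1086 (-3.58 ± 0.62, adjusted p = 0.00304). Tafa1, a secreted chemokine-like factor, was 0.155 and 2.63 against 54.1 and 328, with the libraries of the Eomes-negative neurons far apart. Tmtc1, Csmd3, Nrg3os and the planar polarity gene Prickle2 were called lower with fold changes of -3.97 to -3.55 on the log2 scale.

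Without the newborn neurons of replicate 2, 1563 genes were called against the Eomes-negative neurons, and of the genes named for this comparison here and in the lists that follow, Asic2, Bcl11b, Cdh13, Csmd3, Epha4, Flrt3, Grm5, Kcnh5, Nhlh1, Plcb1, Pou3f3, Prickle2, Scrt2, Slc17a7, Tiam2, Tmtc1, Unc5d and Zbtb18 did not pass (adjusted p from 0.0522 to 0.22). Without those of replicate 4, 1549 genes were called, and Asic2, Bcl11b, Cdh13, Cdkn2d, Csmd3, Epha4, Fezf2, Flrt3, Grm5, Kcnh5, Plcb1, Pou3f3, Rbfox3, Scrt2, Tiam2, Unc5d and Zbtb18 did not pass (adjusted p from 0.0501 to 0.281). With the UMIs split in that way, Slc17a7 and Zbtb18 did not pass, and with the rules applied to thinned cells, Tiam2 and Unc5d did not. Grm5 and Kcnh5 did not pass by DESeq2, and Zbtb18 did not without the Scrublet calls.

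**Figure D3:**
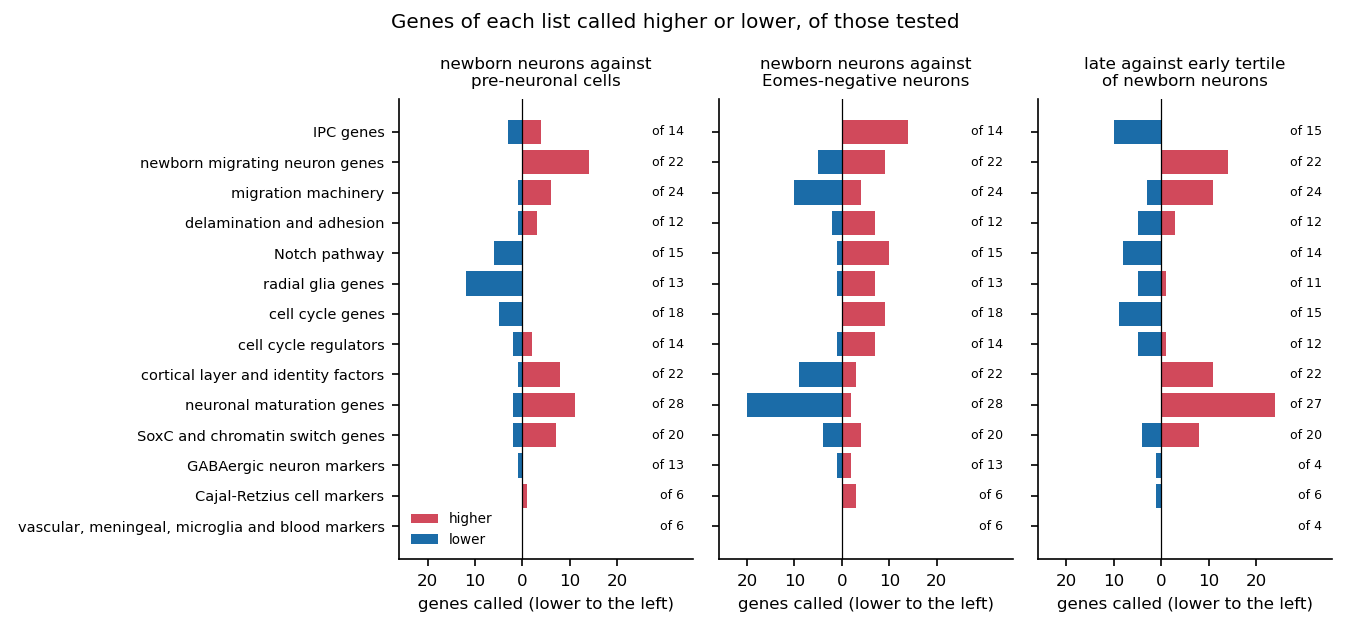
Number of genes of each list called higher (red, to the right) or lower (blue, to the left) of those tested, for the newborn neurons against pre-neuronal cells, the newborn neurons against Eomes-negative neurons, and the late against the early tertile of the newborn neurons. IPC genes are higher than in Eomes-negative neurons in 14 of 14, radial glia genes are lower than in pre-neuronal cells in 12 of 13, and 24 of 27 maturation genes are higher in the late tertile.

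The counts of each gene list that follow are to be read against the share called among all genes tested, 13.6% against pre-neuronal cells and 28.1% against Eomes-negative neurons. The genes of IPCs were kept in part. Of 14 tested, 4 were higher and 3 lower than in pre-neuronal cells with a median of -0.28 (log2), and all 14 were higher than in Eomes-negative neurons with a median of 3.16, beside medians of -0.01 and -0.00 over all genes. Neurog2 did not pass against pre-neuronal cells (659 and 677 CPM, -0.57 ± 0.24, adjusted p = 0.141), but was called lower with the UMIs split into 2 sets (-0.75, adjusted p = 0.0194) and with the rules on thinned cells (-0.81, adjusted p = 0.00937). Chd7, a chromatin remodeller, was 498 and 495 CPM in the newborn neurons, 957 and 1091 before and 40.1 and 51.3 after, and was called in both directions (-0.96 ± 0.17 and 3.33 ± 0.18, adjusted p = 0.00706 and 2.65e-05). The RNA-binding protein gene Elavl2 was 1346 and 1398 CPM, against 944 and 877 before and 471 and 490 after. Its difference to pre-neuronal cells was only 0.18 (log2, adjusted p = 0.59) with the UMIs split into 2 sets and 0.13 (adjusted p = 0.589) with the rules on thinned cells. Mfap4 was 233 and 212 CPM against 149 and 112 before and 24.5 and 27.0 after. Some rarer proneural genes had no UMI in the Eomes-negative neurons. Neurod4 was counted with 269 UMIs in the newborn neurons and 0 after, at least 199-fold higher over both libraries, and Neurog1 with 346 and 0, at least 255-fold higher, each with the limit at 3 counts.

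Notch signalling keeps progenitors undifferentiated, with the ligand Dll1 on the newborn cell acting on the receptor of its neighbour. Of 15 genes of this pathway tested, 6 were lower and 0 higher than in pre-neuronal cells, and 10 were higher and 1 lower than in Eomes-negative neurons. The receptor gene Notch1 was 47.2 and 39.3 CPM, 129 and 137 before and 0.691 and 1.42 after (-1.54 ± 0.22 and 5.20 ± 0.28, log2, adjusted p = 0.00336 and 2.65e-05). Dll1 was 36.3 and 29.4, 84.1 and 66.0 before and 8.54 and 7.59 after, and the bHLH gene Hes6 was 187 and 158, 305 and 334 before and 37.5 and 40.6 after. These 3 genes stood between both neighbours in both libraries. Mfng, which modifies Notch, was 145 and 133 CPM, above 81.0 and 117 before without a call (adjusted p = 0.358), and above 11.7 and 10.4 after. The pathway's nuclear partner Rbpj was 260 and 274 against 238 and 270 before and 125 and 128 after.

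Radial glia genes were down from the pre-neuronal stage in 12 of 13 tested, with a median of -2.41 (log2). The transcription factor Sox9 was 19.9 and 20.9 CPM against 136 and 116 (-2.53 ± 0.22, adjusted p = 4.94e-04), the intermediate filament gene Nes was 26.2 and 21.0 against 107 and 137, and Ddah1 was 34.4 and 27.9 against 258 and 323. In sum the list went from 3781 and 4249.8 CPM in pre-neuronal cells to 995 and 846 in newborn neurons, beside 898 and 825 in Eomes-negative neurons. Ptprz1, with the levels given above, made up most of the sum in Eomes-negative neurons and a small part of that in newborn neurons. The closeness of these sums thus does not hold for the rest of the list. Sox2, a factor of neural stem cells, was above the Eomes-negative neurons at 40.5 and 32.4 against 1.76 and 2.31 CPM (4.03 ± 0.27, adjusted p = 5.51e-05). Against those neurons 7 of the 13 were higher and 1, Ptprz1, was lower.

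Cell cycle genes were at low levels, and Mki67 and Top2a had been limited by the rule. Of 18 others tested, 5 were lower and 0 higher than in pre-neuronal cells, and 9 were higher and 0 lower than in Eomes-negative neurons. The replication helicase gene Mcm6 was 32.4 and 28.2 CPM, 78.0 and 103 before and 7.16 and 7.82 after (-1.51 ± 0.17 and 1.90 ± 0.17, log2, adjusted p = 0.00121 and 1.58e-04). The G2/M genes Cdk1 and Ccnb1 stood at 0.931 and 3.59 CPM and at 0.155 and 1.91 CPM. Cenpf, Ube2c, Tpx2 and Hmgb2 were among the 9 genes called higher than in Eomes-negative neurons. Among regulators of the cycle, cyclin D2 (Ccnd2) was 339 and 261 CPM against 502 and 639 before and 46.3 and 39.6 after. Cdkn2d, an inhibitor of cyclin D kinases, ran the other way with 20.3 and 19.4 against 9.12 and 5.34 before and 30.5 and 35.9 after. Of 14 such regulators, 2 were higher and 2 lower than before (13.6% of all genes called), and 7 were higher and 1 lower than after (28.1%).

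Genes linked to newborn migrating neurons were higher than in pre-neuronal cells in 14 of 22 tested and lower in 0, with a median of 1.59 (log2). Against Eomes-negative neurons 9 were higher and 5 lower, with a median of 0.21. Doublecortin (Dcx), a microtubule protein of migrating neurons, was 574 and 711 CPM against 154 and 97.4 before (2.45 ± 0.34, adjusted p = 0.00321), and 658 and 643 after without a call (adjusted p = 0.808). The guidance receptor gene Nrp1 was 510 and 569 against 69.9 and 113 before and 520 and 403 after, and the GTPase gene Rnd2, a target of Neurog2, was 222 and 207 against 50.7 and 69.4 before and 234 and 222 after. None of the 3 passed against the Eomes-negative neurons (adjusted p = 0.742 for Nrp1 and 0.394 for Rnd2), and the libraries of both classes overlapped for Dcx and Nrp1.

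Rnd3, a related GTPase, differed from Rnd2 in this. It was 125 and 145 CPM against 71.9 and 70.1 before and 50.8 and 56.9 after, and was called higher against both (1.02 ± 0.16 and 1.22 ± 0.15, log2, adjusted p = 0.00538 and 6.52e-04). The bHLH gene Nhlh1 was 59.6 and 49.9 CPM against 16.7 and 13.6 after (1.74 ± 0.31, adjusted p = 0.00497), and the POU factor gene Pou3f2 was 139 and 128 against 51.9 and 28.4 (1.63 ± 0.25, adjusted p = 0.00184). The genes that were lower than in Eomes-negative neurons were Zbtb18, Tiam2, Cdh13, Flrt2 and Flrt3. Flrt2, which encodes a ligand of Unc5d, was 59.3 and 58.5 CPM against 307 and 338 (-2.56 ± 0.17, adjusted p = 5.51e-05).

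Epha4, the receptor in which the study was interested, was 784 and 815 CPM in the newborn neurons, 645 and 614 in pre-neuronal cells and 265 and 286 in Eomes-negative neurons. Both libraries were above every sum of the neighbours, but the step from the pre-neuronal cells did not pass (0.43 ± 0.37, log2, adjusted p = 0.490), and that to the Eomes-negative neurons did (1.43 ± 0.37, adjusted p = 0.0208). The related receptor gene Epha3 stood at 2207 and 3272 CPM against 675 and 869 before (1.91 ± 0.24, adjusted p = 0.00222) and 1469 and 1881 after (adjusted p = 0.0874, and 0.0248 with the library as a block).

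Of 24 genes of the migration machinery, 6 were higher and 1 lower than in pre-neuronal cells, and 4 were higher and 10 lower than in Eomes-negative neurons (13.6% and 28.1% of all genes were called). The Slit receptor gene Robo2 was 2194 and 3704 CPM against 620 and 550 before (2.42 ± 0.33, log2, adjusted p = 0.00305) and 2388 and 2368 after. The tubulin gene Tuba1a, mutated in lissencephaly, stood midway at 3048 and 2866 CPM, with 1595 and 1031 before and 6330.0 and 6157 after. Dclk1, a kinase related to Dcx, was 198 and 220 CPM against 602 and 621 after (-1.66 ± 0.27, adjusted p = 0.00239). The lissencephaly gene Pafah1b1 (Lis1) was not called, with 345 and 331 CPM, 350 and 291 before and 341 and 322 after, and adjusted p-values of 0.514 and 0.724.

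Lrp8, Vldlr and Dab1 of this list belong to the Reelin pathway, through which Cajal-Retzius cells direct arriving neurons. Lrp8 (ApoER2), a Reelin receptor, was 308 and 324 CPM against 140 and 139 after (1.07 ± 0.21, log2, adjusted p = 0.00570). Vldlr, the other receptor, was 6.67 and 5.38 against 32.2 and 31.1 (-2.51 ± 0.24, adjusted p = 2.25e-04), and the adaptor Dab1 was 158 and 126 against 1243 and 1133 (-3.17 ± 0.31, adjusted p = 2.47e-04). Newborn neurons thus had more Lrp8 and less Vldlr and Dab1 transcript than Eomes-negative neurons. None of the 3 was called against pre-neuronal cells by edgeR, but Dab1 was lower by DESeq2 (-0.89, log2, adjusted p = 0.0387) and with at least 3 Eomes UMIs (-1.58, edgeR, adjusted p = 0.0211).

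Delamination from the ventricular surface is known to be controlled by Scratch and Zeb zinc-finger factors, and 12 genes of this list could be tested. Scrt2 was highest here at 94.6 and 94.7 CPM, with 14.2 and 18.0 before and 56.3 and 55.1 after (2.61 ± 0.19 and 0.66 ± 0.14, log2, adjusted p = 4.50e-04 and 0.0102). Scrt1 climbed through all stages, from 11.1 and 2.67 to 35.4 and 31.1 and on to 102 and 79.5. The apical polarity gene Pard3 was 637 and 669 CPM, near the 582 and 736 of pre-neuronal cells (adjusted p = 0.819) and far above the 85.5 and 81.9 of Eomes-negative neurons (2.86 ± 0.17, adjusted p = 3.84e-05). Zeb1 was 448 and 308 against 41.3 and 36.6 after (3.17 ± 0.40, adjusted p = 7.17e-04), whereas Zeb2 was 457 and 509 against 1260.2 and 1181 (-1.44 ± 0.21, adjusted p = 0.00132). The list had 3 genes higher and 1 lower than before (13.6% of all genes called), and 7 higher and 2 lower than after (28.1%).

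Most maturation genes were below the level of the Eomes-negative neurons. Of 28 tested, 11 were higher and 2 lower than in pre-neuronal cells with a median of 0.92 (log2), and 2 were higher and 20 lower than in Eomes-negative neurons with a median of -1.81. In sum the list stood at 6764 and 7141 CPM in newborn neurons against 6475 and 2933 in pre-neuronal cells, so the sums of replicate 2 were close, beside 18929 and 19699.8 in Eomes-negative neurons. The AMPA receptor gene Gria2 was 338 and 414 CPM, 164 and 109 before and 975 and 863 after (1.56 ± 0.21 and -1.40 ± 0.20, adjusted p = 0.00282 and 0.00131). The adhesion gene Cntn2 was 56.6 and 64.7, 13.2 and 4.67 before and 390 and 341 after. The 2 that were higher than in Eomes-negative neurons were Slc17a6, described above, and Rbfox3, which encodes the neuronal antigen NeuN, at 615 and 720 CPM against 277 and 342 (1.0 ± 0.23, adjusted p = 0.0127). The NMDA receptor gene Grin2b was lower than in both neighbours, at 83.0 and 57.3 CPM against 277 and 141 before and 513 and 509 after. Slc17a7 (VGLUT1) was 14.7 and 28.1 CPM against 35.0 and 48.5 after (adjusted p = 0.0419), a call lost in 5 of 14 alternatives, among them DESeq2 (0.123), at most 5% mitochondrial UMIs (0.054) and at least 6 UMIs of Neurod2 and Neurod6 (0.0594).

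Layer and identity factors were in part present. Of 22 tested, 8 were higher and 1 lower than in pre-neuronal cells, and 3 were higher and 9 lower than in Eomes-negative neurons. Bcl11b (Ctip2), a factor of subcerebral neurons, was 246 and 320 CPM against 117 and 26.0 before and 815 and 914 after. Tbr1, a factor of early-born corticothalamic neurons, was 79.1 and 83.6 against 25.3 and 4.67 before and 143 and 161 after, where the difference did not pass (-1.01 ± 0.36, log2, adjusted p = 0.0668). It did pass in 5 of 14 alternatives, with the UMIs split into 2 sets (adjusted p = 0.00144), the rules on thinned cells (0.00626), the compared classes alone (0.00108), at least 3 Eomes UMIs (0.0279) and no filter on low counts (0.021). Fezf2 was 89.4 and 79.9 CPM, 85.1 and 113 before and 156 and 146 after. The newborn neurons lay between their neighbours in both libraries for Bcl11b and Tbr1. Cux1, Pou3f2 and Pou3f3 were the 3 that were higher than in Eomes-negative neurons.

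Among SoxC factors and chromatin subunits, 7 of 20 genes were higher and 2 lower than in pre-neuronal cells, and 4 were higher and 4 lower than in Eomes-negative neurons, where 28.1% of all genes were called. Sox11, which promotes neuronal genes, was 2866 and 3329 CPM against 710 and 1072 before (1.88 ± 0.24, log2, adjusted p = 0.00246) and 3489 and 3615 after. The neuronal BAF subunit gene Actl6b was 33.2 and 29.4 against 110 and 119 after (-1.98 ± 0.30, adjusted p = 0.00152). The splicing repressor gene Ptbp1, which is shut off in neurons, was 31.2 and 33.2 against 14.6 and 12.2 (1.16 ± 0.18, adjusted p = 0.00166). The DNA methyltransferase gene Dnmt3a was 35.7 and 28.9 CPM against 112 and 107 before (-1.68 ± 0.16, adjusted p = 7.02e-04) and 23.2 and 26.9 after. Dnmt1, the maintenance enzyme the study is about, was 34.6 and 28.5 CPM, 33.4 and 45.4 before and 40.1 and 38.3 after, with adjusted p-values of 0.362 and 0.0625. Against Eomes-negative neurons it was called lower in 2 of 14 alternatives, with the compared classes alone (adjusted p = 0.038) and with at least 6 UMIs of Neurod2 and Neurod6 (adjusted p = 0.037).

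Markers of other cell types were measured in the newborn neurons in the same sums. The 14 GABAergic markers summed to 63.6 and 36.1 CPM, against 25298 and 21902 in the GABAergic class, 173 and 78.7 in pre-neuronal cells and 17.1 and 17.2 in Eomes-negative neurons. Of the sum in newborn neurons, Erbb4 made up 20.9 and 13.3 CPM. The rules had limited Dlx and Gad genes in these cells and required them in the GABAergic class, so a gap between these classes was built in. Of the 13 tested, 0 were higher and 1 lower than before, and 2 higher and 1 lower than after, near the 28.1% of all genes called there. Cajal-Retzius markers summed to 152 and 177 CPM, against 455 and 112 in pre-neuronal cells and 49.6 and 91.9 in Eomes-negative neurons. Of these markers, 1 of 6 was higher than before and 3 of 6 were higher than after. Lhx1 was at 0, and Trp73 was at 0 by the rule. Vascular, meningeal, microglial and blood markers summed to 87.6 and 182 CPM, led by hemoglobin Hbb-bs at 50 and 102, and 0 of 6 were called by edgeR against either neighbour, with 0 at an unadjusted p under 0.05 and 0 by DESeq2. The part of free RNA or of doublets in these levels was not tested beyond leaving out the Scrublet calls.

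The newborn neurons were then ordered among themselves by the share of Neurod2 and Neurod6 in the UMIs of Neurod2, Neurod6 and Eomes, and split into 3 groups of like size, tertiles, within each library. The median share was 38.9% and 32.7% in the early tertile (69 and 117 cells), 65.0% and 61.0% in the middle tertile (67 and 115) and 91.1% and 91.4% in the late tertile (69 and 116). Median UMIs per cell were close, with values of 30649 and 24020 in the early and 28603 and 22313 in the late tertile. Eomes fell from 667 and 906 CPM in the early tertile to 124 and 130 in the late tertile by this construction. Genes that vary with Eomes, Neurod2 or Neurod6 were sorted along with them. The calls between tertiles therefore describe this order and are no independent sign of a course in time. Of 97 cells with only 1 or 2 Eomes UMIs, 92 were in the late tertile, of 185 cells there. In a fit of the 6 sums, 2300 of 11276 other genes were called between the late and the early tertile (20.4%), 1297 higher (11.5%) and 1003 lower (8.89%).

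Genes of progenitors fell along this order. Of 15 IPC genes tested, 10 were lower and 0 higher in the late tertile, with a median of -1.55 (log2) beside -0.01 over all genes. Neurog2 was 903 and 796 CPM in the early, 370 and 289 in the middle and 96.2 and 69.7 in the late tertile (-3.26 ± 0.20, adjusted p = 2.55e-04), and Gadd45g, a growth arrest gene, was 687 and 517, then 198 and 160, then 53.8 and 43.0. Sox6 went from 1808 and 1480.0 to 397 and 358, and Neurog1 from 65.5 and 50.1 to 0.456 and 1.81. Of 14 Notch pathway genes 8 were lower, of 15 cell cycle genes 9 were lower, and of 11 radial glia genes 5 were lower and 1, Ptprz1, was higher. The helicase gene Mcm6 was 66.4 and 53.9 CPM early and 7.75 and 10.8 late (-2.57 ± 0.23, adjusted p = 7.44e-04). For Neurog2 and Eomes the early tertile was above both pre-neuronal sums given above, and for Mcm6 it was below them. Whether the cells of the early tertile are neurons or still progenitors was not tested. The genes named in that way for the widest falls were Ebf2, Neurog1, Dock1, Nfatc2, Smoc1, Thsd4, Rgs3 and Sash1, with fold changes of -5.53 to -3.85 on the log2 scale.

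Neuronal genes rose along the same order. Of 27 maturation genes 24 were higher in the late tertile and 0 lower, with a median of 2.40 (log2). Rbfox1 was 41.9 and 87.3 CPM in the early, 284 and 396 in the middle and 1919 and 2261 in the late tertile (5.10 ± 0.37, adjusted p = 4.00e-04). Lrfn5, a synaptic adhesion gene, was counted with 1445 UMIs in the late and 3 in the early tertile over both libraries, a ratio of 490 (counting interval 167 to 2377), and Kctd8 with 350 and 2, a ratio of 178 (48.9 to 1475). Hs3st4, Rgs6, Runx1t1, Arpp21, Gpc5 and Shtn1 were called higher by 5.41 to 6.94 on the log2 scale. For Gpc5 and Runx1t1 the late tertile differed between the libraries, with 145 against 50.2 and 390 against 151 CPM.

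The gene lists split along this order, in which 20.4% of all genes were called. Of 22 newborn migrating neuron genes 14 were higher and 0 lower, of 24 migration machinery genes 11 were higher and 3 lower, and of 22 layer and identity factors 11 were higher and 0 lower. Of 20 SoxC and chromatin genes 8 were higher and 4 lower, of 12 delamination and adhesion genes 3 were higher and 5 lower, and of 12 cycle regulators 1 was higher and 5 lower. Of 4 GABAergic markers tested 1 was lower, of 6 Cajal-Retzius markers 1 was lower, and of 4 vascular, meningeal, microglial and blood markers 0 were called by edgeR, with 0 at an unadjusted p under 0.05 and 0 by DESeq2. Tbr1 was 13.4 and 40.3 CPM early and 133 and 124 late (2.31 ± 0.37, log2, adjusted p = 0.00609), and Bcl11b 30.9 and 80.7 early and 483 and 613 late (3.37 ± 0.40, adjusted p = 0.00193). Dab1 stayed at 54.9 and 53.6 CPM early and 42.7 and 52.9 in the middle, and reached 370 and 274 late (2.66 ± 0.18, adjusted p = 3.53e-04). Fezf2 was 91.7 and 97.7 early and 91.2 and 73.0 late (-0.12 ± 0.16, adjusted p = 0.647).

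Genes that peaked in the newborn neurons did not share 1 course within them. Unc5d was 470 and 1769 CPM early, 3022 and 4273 in the middle and 3495 and 5243 late (2.06 ± 0.56, log2, adjusted p = 0.0388). Neurod1 was 71.9 and 140, then 315 and 345, then 328 and 355 (1.78 ± 0.28, adjusted p = 0.00543), so that both had reached most of their late level in the middle tertile. Sstr2 was 139 and 164 early and 152 and 164 late (adjusted p = 0.474), and Slc17a6 was 84.8 and 261 early and 357 and 406 late (1.23 ± 0.44, adjusted p = 0.0925). The difference of Slc17a6 passed in 3 of 12 alternatives, with the library as a block (adjusted p = 0.0112), after thinning to 10000 UMIs (0.0343) and with no filter on low counts. Ust ran down from 621 and 732 CPM to 341 and 238 (-1.13 ± 0.20, adjusted p = 0.00852), as did Thrb from 184 and 111 to 60.2 and 47.3 and Kif26b from 499 and 1084 to 102 and 107. Without the late tertile of replicate 2, 1006 genes were called between the tertiles, and without that of replicate 4, 966. Of the genes named for the tertiles, Kif26b and Unc5d did not pass without the former (adjusted p from 0.068 to 0.0875), and Kif26b, Thrb, Unc5d and Ust did not pass without the latter (adjusted p from 0.0587 to 0.176). Without the 97 cells of 1 or 2 Eomes UMIs, an alternative chosen after seeing the data that left 37 and 56 cells in the late tertile, 1673 genes were called, 1563 of them among the 2300. Of the maturation genes 19 of 27 were then higher, and of the IPC genes 11 of 15 were lower. Bcl11b (3.31, log2, adjusted p = 0.00358) and Tbr1 (2.37, adjusted p = 0.00854) kept their calls, Dab1 was down to 1.70 (adjusted p = 0.0133), and Ptprz1 did not pass (0.69, adjusted p = 0.0669). The single calls in the GABAergic and Cajal-Retzius lists were lost in that fit. Thrb did not pass after thinning to 10000 UMIs (adjusted p = 0.0761), nor did Kif26b and Unc5d between 2 equal groups of cells (adjusted p = 0.0648 and 0.0759).

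**Figure D4:**
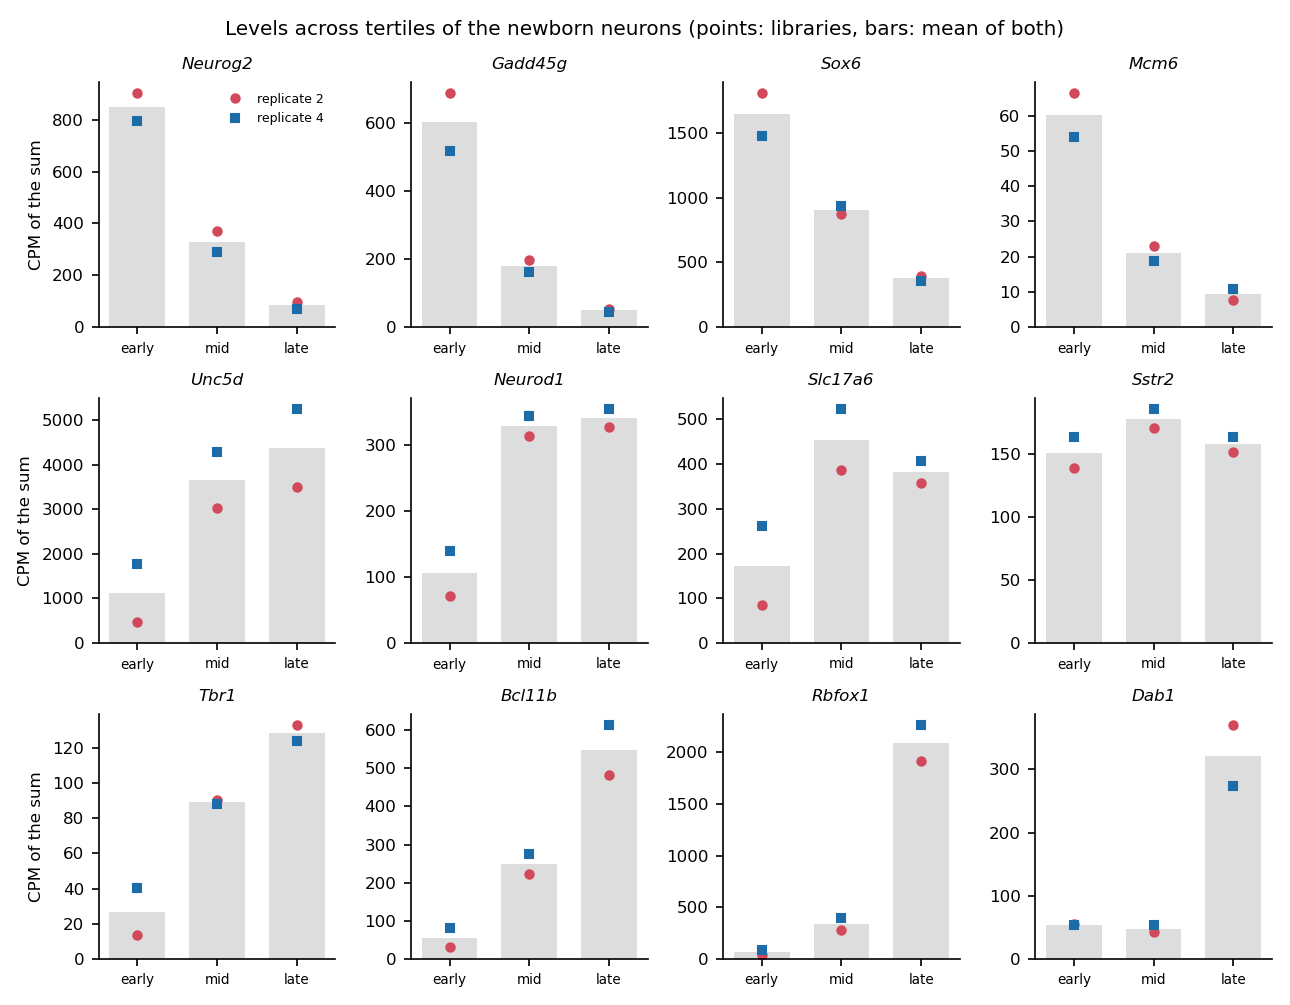
Level (CPM of the summed UMIs, linear axes from 0) of 12 genes in the early, middle and late tertile of the newborn neurons, with a point for each library and a bar at their mean. Neurog2, Gadd45g, Sox6 and Mcm6 step down from tertile to tertile, Tbr1, Bcl11b and Rbfox1 step up, Unc5d and Neurod1 rise between the early and the middle tertile, Dab1 rises in the late tertile, and Sstr2 stays between 139 and 186.

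Per cell, 120 of the 553 newborn neurons (21.7%) held no Unc5d UMI, 68 of 205 in replicate 2 (33.2%) and 52 of 348 in replicate 4 (14.9%). Their median depth was 27562 UMIs against 25033 in the cells with Unc5d, with 27333 against 24576 in the early, 25470 against 25484 in the middle and 35081 against 24069.5 in the late tertile. The part of depth in the missing UMIs was not tested. In the early tertile 86 of 186 cells (46.2%) lacked it, in the middle tertile 19 of 182 (10.4%) and in the late tertile 15 of 185 (8.11%). The libraries differed most in the early tertile, with 68.1% of cells without it in replicate 2 and 33.3% in replicate 4. Where it was present, the median was 85 UMIs in newborn neurons, 5 in pre-neuronal cells and 31 in Eomes-negative neurons.

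To compare shares of cells across depths, each cell was thinned to 5000 UMIs, which left out 2 and 3 shallower newborn neurons. Unc5d was then found in 64.0% and 81.4% of newborn neurons (mean 72.7% ± 12.3, SD, n = 2), in 18.2% and 15.9% of pre-neuronal cells and in 50.8% and 53.5% of Eomes-negative neurons. In GABAergic neurons it was found in 12.1% and 17.2%. Sstr2 was found in 53.2% and 55.1% of newborn neurons, in 6.06% and 18.8% before and 17.2% and 19.8% after, and in 0 of 66 GABAergic neurons of replicate 2 (which allows up to 4.55%) and 6.03% of those of replicate 4. Neurog2 and Neurod1 were found together in 23.6% and 29.0% of newborn neurons, 6.06% and 7.25% of pre-neuronal cells and 3.40% and 1.95% of Eomes-negative neurons, and in 0 of 66 and 0 of 116 GABAergic neurons (which allows up to 4.55% and 2.59%). For each of these readouts both libraries of the newborn neurons were above both libraries of each neighbour, in the same cells in which Sstr2 and Neurod1 had been named for that order of their levels. Unthinned, the mean share of newborn neurons was 75.9% for Unc5d and 90.6% for Sstr2.

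Bcl11b and Tbr1, factors of deep-layer neurons, were followed in the same way. After thinning, Bcl11b was found in 43.3% and 57.1% of newborn neurons (mean 50.2% ± 9.72, SD, n = 2). It was found in 13.0% and 31.6% of the early, 39.4% and 61.4% of the middle and 77.9% and 78.9% of the late tertile, beside 91.2% and 93.8% of Eomes-negative neurons and 27.3% and 7.25% of pre-neuronal cells. The share with Bcl11b thus rose in each library from tertile to tertile, and unthinned its mean over all newborn neurons was 75.3%. GABAergic neurons, some of which express Bcl11b, held it in 84.8% and 88.8% of cells. They thus give no measure of free RNA for Bcl11b, and the part of free RNA in its shares was not tested. Tbr1 was found in 27.6% and 28.4% of newborn neurons, from 7.25% and 17.1% in the early to 42.6% and 38.6% in the late tertile, and in 1.52% and 4.31% of GABAergic neurons.

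**Figure D5:**
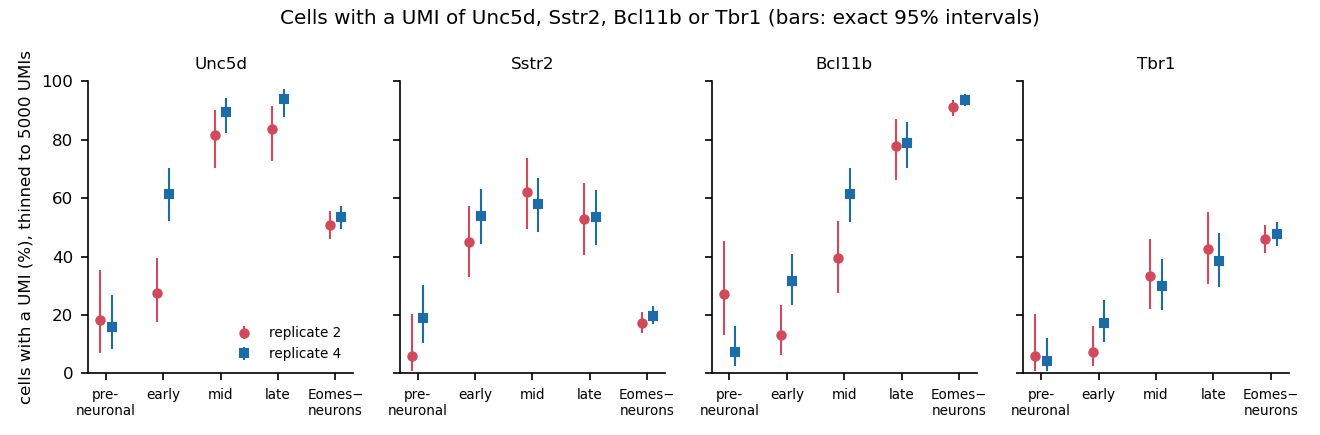
Share of cells (y axis, percent) with at least 1 UMI of Unc5d, Sstr2, Bcl11b or Tbr1, after thinning to 5000 UMIs, in pre-neuronal cells, the early, middle (mid) and late tertiles of the newborn neurons and Eomes-negative neurons, with a point for each library and exact 95% intervals that cover counting error only. Unc5d is found in 27.5% and 61.5% of cells of the early and 83.8% and 93.9% of the late tertile, Sstr2 is between 44.9% and 62.1% in every tertile, and the share with Bcl11b steps up from tertile to tertile in each library.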

How the data were processed

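Cells of the dorsal telencephalon of WT control embryos at E14.5 were dissociated with papain and profiled as 2 libraries (replicates 2 and 4) with 10x 3′ v3.1 chemistry. The authors deposited a matrix of raw counts, whole-number UMI counts per gene and cell, made with Cell Ranger 7.0.0 against mm10 per the submitters' processing notes, and whether intronic reads were counted is not given in the sources used here.

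Cells with at least 1000 genes and at most 10% mitochondrial UMIs were retained and assigned by the rules given in the results. Radial glia-like cells held at least 3 UMIs of Hes1 and Hes5, at least 1 of Pax6, no Eomes and at most 2 of Neurod2 and Neurod6, under the same limits on other genes, and GABAergic neurons at least 3 each of Dlx1 and Dlx2 and of Gad1 and Gad2. UMIs were summed per class and library, filtered with filterByExpr, scaled by TMM and tested with edgeR 4.0.16 (quasi-likelihood, R 4.3.3), after a check on simulated data. Shares have exact (Clopper-Pearson) 95% intervals, which like the limits at 0 (3 counts) cover counting error only. DESeq2 1.42.0, scanpy 1.11.5 (Scrublet) and scipy 1.17.1 on Python 3.11.15 served the alternatives and shares.

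The members and gene lists were chosen with earlier results of these data known. Named genes were the 5 markers, in the pairwise comparisons up to 8 called genes each way, ranked by absolute fold change, that kept their sign in both libraries and reached 50 CPM in either class, up to 10 higher and 5 lower genes against the mean of both neighbours (outside the range of both in each library, ranked by the nearer gap), and genes of the lists, without rule genes, mitochondrial genes and unnamed gene models. Some genes counted in the lists are not reported here by name. Replicates are known only by number, so p-values measure the spread between these libraries. Sums with the same number come from the same library and are thus paired, and the correlation of their deviations was 0.019 to 0.287 over the 3 compared classes and 0.175 to 0.259 over the tertiles. Alternatives covered scaling, filters, tests, class rules, thinning, doublets, the library as a block and leaving out each library.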

Additional observations from a re-analysis of the deposited data

Results flagged for a closer look

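Outside the comparisons, cells that met the rule except for the limit on Mki67 and Top2a were counted, because they held a signal of dividing cells beside neuronal genes. They were 96 of 3182 retained cells (3.02%, exact 95% interval 2.45 to 3.67), 35 of 1211 in replicate 2 and 61 of 1971 in replicate 4. Their median was 13 Eomes UMIs, 23 UMIs of Neurod2 and Neurod6 and 25.5 UMIs of Mki67 and Top2a, at a median depth of 32779.5 UMIs. Their summed UMIs held 120 CPM of Neurod1, 1712 of Unc5d and 412 of Dcx, beside 613 CPM of Cenpf, 253 of Cdk1 and 203 of Ccnb1, genes of the G2 and M phases. Neurog2 stood at 292 CPM, Sox2 at 83.2 and Tbr1 at 45.1. Scrublet called 5 of these cells as doublets, and the part of doublets in the others was not tested.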

How the results depend on the processing

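The number of called genes kept within 1.5 times its value under the library as a block (1584 against pre-neuronal cells, 3455 against Eomes-negative neurons, 1030 against the mean of both and 3003 between the tertiles), DESeq2, its size factors, no filter on low counts and the limits on genes, mitochondrial UMIs and Scrublet calls. Against pre-neuronal cells, 1056 genes were called with at least 3 Eomes UMIs and 991 in a fit of the compared classes alone, and against Eomes-negative neurons the latter gave 5574. Between the tertiles, 1265 were called after thinning to 10000 UMIs and 1356 with 2 equal groups of cells. Leaving out a library of the newborn neurons gave 450 to 705, 1549 to 1563, 113 to 191 and, for the late tertile, 966 to 1006 genes, with 1 sum fewer in each fit. The share of called genes that were higher against the mean of both neighbours was 56.9%, and 67.3 to 69.6% without a library. The newborn neurons made up 17.3% of cells, 18.8% with at most 5% mitochondrial UMIs, 18.1% with at least 2000 genes, 14.3% with at least 3 Eomes UMIs, 15.5% with at least 6 Neurod2 and Neurod6 UMIs and 15.6% with rules on thinned cells. Detection moved with depth, from 54.1% to 76.2% (10000 UMIs) and 90.6% (unthinned) for Sstr2 and from 50.2% to 62.6% and 75.3% for Bcl11b.

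Of 2720 recomputed fold changes of named genes, 2568 kept direction and side of the threshold, 127 lost their call, 16 gained one and 9 changed sign, and the library as a block moved 2 of 199, Slc17a6 between the tertiles and Epha3 against Eomes-negative neurons. The changes of sign were in genes that were not called. Against pre-neuronal cells they were Lrp8 (-0.32 with rules on thinned cells and -0.27 with rules and test on separate sets of UMIs), Pard3 (-0.27 and -0.11) and Vldlr (0.40 and 0.16). Against Eomes-negative neurons they were Nrp1 (-0.07 with at least 3 Eomes UMIs) and Dcx (0.02 without replicate 2, whereas -0.30 without replicate 4 kept the sign), and between the tertiles Fezf2 (0.02 without replicate 4). The cause was not tested. Of the compared classes, depth limits the pre-neuronal sums most, at 987084 and 1498901 UMIs.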
